A study of Mus musculus with 8 samples.

Results

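The 8 genes of secreted Wnt inhibitors followed here were the secreted frizzled-related protein genes Sfrp1, Sfrp2, Sfrp4, Sfrp5 and Frzb (also called Sfrp3), the Dickkopf genes Dkk2 and Dkk3, and Wif1. They were taken by name, with earlier results of these data known. All 8 were among the 19752 genes that had a probe set with exactly 1 gene symbol, and all 8 were bright enough to be among the 14814 genes tested. Each had 1 such probe set, so no choice between probe sets was needed. The arrays (Affymetrix Mouse Gene 1.0 ST) measured RNA of whole tibialis anterior muscle, a fast muscle of the lower hind limb, from male C57BL/6 mice, whose age is 99 weeks in the labels and 22 months in the design text. The muscle had been frozen locally with a metal probe chilled in liquid nitrogen for 8 s and was taken 8 days later. In one group of 4 arrays the mice had received recombinant IL-33 (rIL-33), an alarmin cytokine, at 2 µg per intraperitoneal injection, on the day before and the day after injury. The other 4 arrays carry the treatment label PBS, and how PBS was given is not stated. All animals were injured, old and male, and no uninjured, young or female group was analysed here.

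The genetic background is labelled C57BL/6 for replicates 1 and 2 of both groups, but WT for replicates 3 and 4, and what sets them apart is not explained. Separate animals are not stated for the arrays, so a p-value measures only the spread between these samples, which may be technical. Median intensities ran from 222.6 to 232.2. Myofibre genes were bright on every array, with Acta1, the skeletal actin gene, at 13.9 in both groups (log2 intensity). The number of genes at an unadjusted limma p under 0.05 was 1427 in all and 639 without rIL-33 replicate 1.

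Wnt proteins are secreted ligands that bind Frizzled receptors together with Lrp co-receptors on the cell surface, which in the canonical pathway stabilises beta-catenin and switches on genes through TCF/LEF factors. Secreted frizzled-related proteins carry a domain like the Wnt-binding domain of Frizzled receptors and can hold Wnt proteins outside the cell. Wif1 also binds Wnt proteins, Dkk2 binds the Lrp co-receptors, and Dkk3 is a divergent Dickkopf protein. In injured muscle, Wnt signals act on satellite cells, the stem cells of the fibre, and on the mesenchymal cells that deposit matrix.

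The sequence around the transcription start is shown for the 3 members that had an entry in the RefSeq promoter table and an unadjusted p under 0.05: Sfrp2 and Dkk2, which were lower with rIL-33, and Sfrp5, which was higher. Entries were found for 5 of the 8 members. Each window holds 250 bases before the start and 50 from it on, written 5′ to 3′ along the gene, in build GRCm38.p6. Sfrp2 lies on the plus strand at chr3:83766071-83766370, Dkk2 on the plus strand at chr3:132085042-132085341, and Sfrp5 on the minus strand at chr19:42202203-42202502. Capitals mark matches to 3 motifs searched on both strands. The TCF/LEF core was searched only as CTTTGA, and other forms of the site were not searched. The box of promoters bound by Sp factors was searched as GGGCGG, which is the GC box. For the TATA box the letters were TATAAA.
Sfrp2: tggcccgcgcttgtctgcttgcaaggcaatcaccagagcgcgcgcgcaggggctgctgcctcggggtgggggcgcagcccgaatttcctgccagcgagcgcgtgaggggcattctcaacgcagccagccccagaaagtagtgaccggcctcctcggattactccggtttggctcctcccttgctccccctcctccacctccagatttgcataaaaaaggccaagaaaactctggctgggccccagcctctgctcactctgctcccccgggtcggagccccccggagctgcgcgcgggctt
Dkk2: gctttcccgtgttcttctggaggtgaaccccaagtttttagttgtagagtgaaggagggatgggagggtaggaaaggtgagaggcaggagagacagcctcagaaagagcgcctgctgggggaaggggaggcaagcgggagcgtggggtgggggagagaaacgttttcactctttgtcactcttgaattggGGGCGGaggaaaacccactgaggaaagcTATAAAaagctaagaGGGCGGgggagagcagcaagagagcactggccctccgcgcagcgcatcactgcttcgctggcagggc
Sfrp5: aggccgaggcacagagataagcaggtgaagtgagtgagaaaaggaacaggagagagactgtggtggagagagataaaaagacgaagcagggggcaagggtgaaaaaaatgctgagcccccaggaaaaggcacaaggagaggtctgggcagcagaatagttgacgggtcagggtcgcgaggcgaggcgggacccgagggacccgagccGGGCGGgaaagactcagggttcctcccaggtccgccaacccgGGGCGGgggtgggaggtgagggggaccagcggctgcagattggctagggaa
No match overlapped another. The Sfrp2 window held none of the 3 motifs. Dkk2 held TATAAA from -32 to -27, counted with the first transcribed base as 0, and 2 GC boxes, and Sfrp5 held 2 GC boxes. CTTTGA was in none of these windows, and among the 5 members with an entry it was found in Frzb, once. Of all 32851 windows of 300 bases in the table, 16.0% held CTTTGA, 35.7% GGGCGG and 13.6% TATAAA. The Sfrp2 window was 66.0% G and C, Sfrp5 61.3% and Dkk2 57.7%, against a median of 52.7% over all windows. A match is a run of letters and not a measured binding site.

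With rIL-33, Sfrp1, Sfrp2 and Sfrp4 were lower than with PBS, by 2.17-fold, 1.94-fold and 1.49-fold in geometric mean intensity, while Sfrp5 was higher by 1.20-fold. Dkk2 was lower by 1.13-fold, and Frzb, Dkk3 and Wif1 lay within 1.09-fold of PBS. None of the 8 passed the threshold of an adjusted p of 0.05 in limma (adjusted p from 0.489 to 0.893, Benjamini-Hochberg over the 14814 genes). Over all genes, 1 gene passed, a higher one: 0.00675% in the higher direction and 0% in the lower. With an unadjusted limma p under 0.05, 4 members were lower (Sfrp1, Sfrp2, Sfrp4 and Dkk2), where 5.24% of all genes were called lower, and 1 was higher (Sfrp5), where 4.39% of all genes were. Groups did not overlap in 2 members, Sfrp4 and Dkk2, both lower, where 2.13% of all genes were lower without overlap and 2.44% higher. Because the members were chosen with earlier results of these data known, these counts describe them and are no test against all genes. The median log2 difference, rIL-33 minus PBS, was -0.14 over the 8 members and -0.01 over all genes tested. In such whole muscle, fewer cells of a type and less RNA per cell cannot be told apart.

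**Figure D1:**
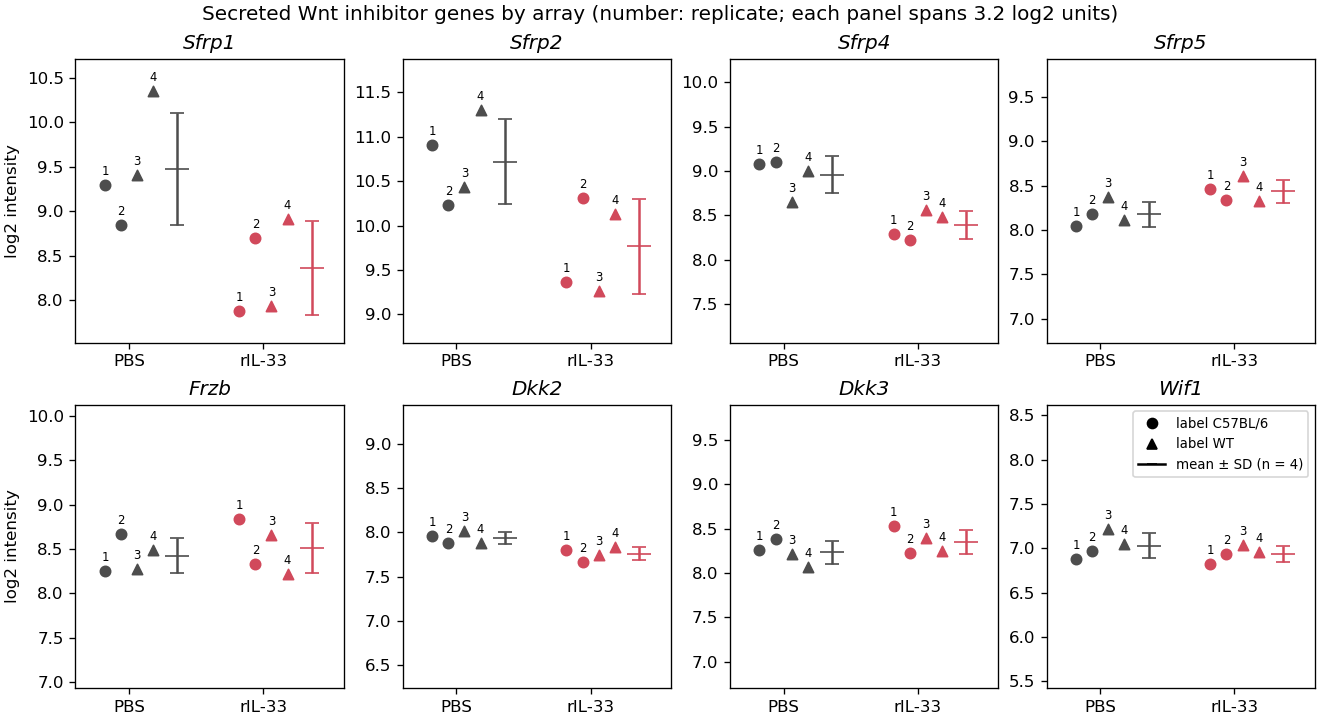
Log2 intensity of the 8 secreted Wnt inhibitor genes on each array (y axis) by treatment (x axis), with the replicate number beside each point, circles for the label C57BL/6, triangles for the label WT, and the mean ± SD of 4 arrays at the right of each group. Every panel spans the same range of log2 units, so the wide scatter of Sfrp1 (7.88 to 10.35) and Sfrp2 (9.26 to 11.30) can be set against the narrow one of Dkk2 (7.67 to 8.02).

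Sfrp1, a Wnt-binding inhibitor of the Sfrp1, Sfrp2 and Sfrp5 subgroup, had the largest difference of the 8. Its log2 intensity with PBS was 9.29, 8.84, 9.41 and 10.35 in replicates 1 to 4, and with rIL-33 it was 7.88, 8.70, 7.93 and 8.92. PBS replicate 4 was the highest array and rIL-33 replicates 1 and 3 were the lowest. The groups overlapped, because rIL-33 replicate 4 lay above PBS replicate 2, and 3 of the 4 rIL-33 arrays lay below all PBS arrays. The means were 9.48 ± 0.63 and 8.36 ± 0.53 (SD, n = 4 per group). The log2 difference was -1.12 (SE 0.32, 95% interval -1.83 to -0.41, limma adjusted p = 0.489), with an exact two-sided permutation p of 0.0571 before any adjustment. That difference had rank 2 from the bottom among the 14814 genes.

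Sfrp2, which is known as a product of activated fibroblasts in healing tissue, followed with a difference of -0.96 (SE 0.28, 95% interval -1.58 to -0.33, limma adjusted p = 0.489; exact permutation p = 0.0571). Its levels with PBS were 10.91, 10.24, 10.44 and 11.30 and with rIL-33 they were 9.36, 10.31, 9.26 and 10.13. As for Sfrp1, PBS replicate 4 was highest and rIL-33 replicates 1 and 3 were lowest. The groups overlapped by 1 array, rIL-33 replicate 2, which lay just above PBS replicate 2. The group means were 10.72 ± 0.48 and 9.76 ± 0.53 (SD, n = 4 per group), and the difference had rank 5 from the bottom among all genes.

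Sfrp4, a secreted frizzled-related protein of a separate subgroup with Frzb, was the member of smallest p. With PBS it stood at 9.08, 9.11, 8.65 and 8.998, and with rIL-33 at 8.29, 8.22, 8.56 and 8.48. All 4 rIL-33 arrays were below all 4 PBS arrays, with a gap of 0.09 between rIL-33 replicate 3 and PBS replicate 3. The difference was -0.57 (SE 0.12, 95% interval -0.83 to -0.31, limma unadjusted p = 0.000577, adjusted p = 0.489). Its p ranked 14th from the smallest among the 14814 genes, and its exact permutation p, 0.0286, is the lowest that the 70 assignments of 8 arrays can give.

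Sfrp5, known as an adipose tissue inhibitor of Wnt signalling as well, differed in the opposite direction. Its levels were 8.05, 8.18, 8.38 and 8.11 with PBS and 8.46, 8.34, 8.61 and 8.33 with rIL-33. PBS replicate 3 was the only PBS array that reached into the range of the rIL-33 arrays. The difference was 0.26 (SE 0.09, 95% interval 0.05 to 0.47, limma adjusted p = 0.489; exact permutation p = 0.0857).

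Frzb, a Wnt-binding protein of cartilage and other mesenchyme, had overlapping groups. It read 8.25, 8.67, 8.28 and 8.49 with PBS and 8.84, 8.34, 8.65 and 8.22 with rIL-33, so that rIL-33 arrays were both the highest and the lowest. Its difference of 0.09 (SE 0.15, 95% interval -0.23 to 0.41, limma adjusted p = 0.893) turned to -0.02 without rIL-33 replicate 1 and to -0.09 with array weights. The interval leaves room for differences of either sign.

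Dkk2, the Lrp-binding Dickkopf protein, was lower on every rIL-33 array than on every PBS array, by a small amount. It was at 7.96, 7.89, 8.02 and 7.88 with PBS and at 7.80, 7.67, 7.74 and 7.83 with rIL-33, and the gap between the groups was 0.05. The difference was -0.18 (SE 0.07, 95% interval -0.33 to -0.02, limma adjusted p = 0.489; exact permutation p = 0.0286). Dkk3, the divergent Dickkopf gene, was at 8.27, 8.38, 8.21 and 8.07 with PBS and at 8.53, 8.23, 8.40 and 8.25 with rIL-33. The groups overlapped, and the difference was 0.12 (SE 0.09, 95% interval -0.09 to 0.33, limma adjusted p = 0.707).

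Wif1, the inhibitor with a domain named after it, was the dimmest member relative to the filter, 0.33 above the cut-off of 6.65 in log2 intensity. It was at 6.88, 6.98, 7.22 and 7.04 with PBS and at 6.82, 6.93, 7.04 and 6.95 with rIL-33. The groups overlapped, with a difference of -0.09 (SE 0.09, 95% interval -0.29 to 0.10, limma adjusted p = 0.761).

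**Figure D2:**
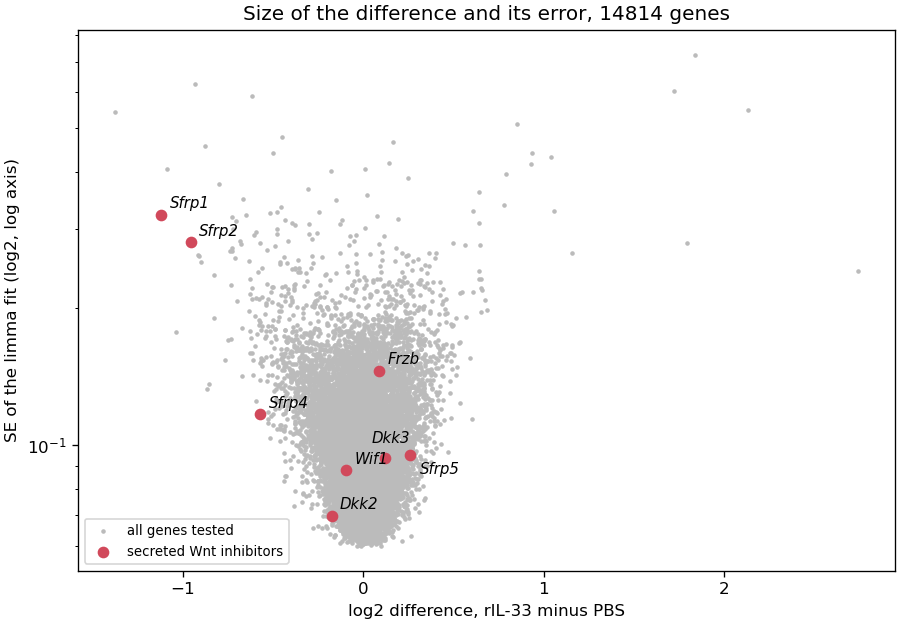
Log2 difference (rIL-33 minus PBS, x axis) against the SE of the limma fit (y axis, log scale) for all 14814 genes tested (grey) and the 8 members (red). Sfrp1 and Sfrp2 lie at the far left and high up, with SE of 0.32 and 0.28, whereas Sfrp4 lies at a smaller difference with an SE of 0.12.

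The members differed widely in their scatter between arrays. The residual SD, the spread of arrays about their group mean, was 0.58 for Sfrp1 and 0.51 for Sfrp2, above 99.8% and 99.6% of the genes tested. It was 0.25 for Frzb and 0.19 for Sfrp4, and 0.07 for Dkk2, higher than in 8.82% of the genes. The median over all genes was 0.14. Sfrp1 and Sfrp2 therefore combined some of the largest differences with some of the largest errors, and Dkk2 a small difference with a small error.

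Sfrp1 and Sfrp2 scattered together. Within rIL-33, replicates 1 and 3 were low and replicates 2 and 4 high in both genes, and within PBS replicate 4 was highest and replicate 2 lowest in both. Over the 8 arrays the Pearson correlation of Sfrp1 with Sfrp2 was 0.95, given as a description of arrays that share the treatment split. Sfrp4 did not follow this order: its lowest arrays were rIL-33 replicates 2 and 1, and its correlation with Sfrp1 was 0.60. Dkk3 ran opposite to Sfrp1, with a correlation of -0.90, being highest in rIL-33 replicate 1 and lowest in PBS replicate 4. Sfrp5 ran opposite to Sfrp2, with -0.88.

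**Figure D3:**
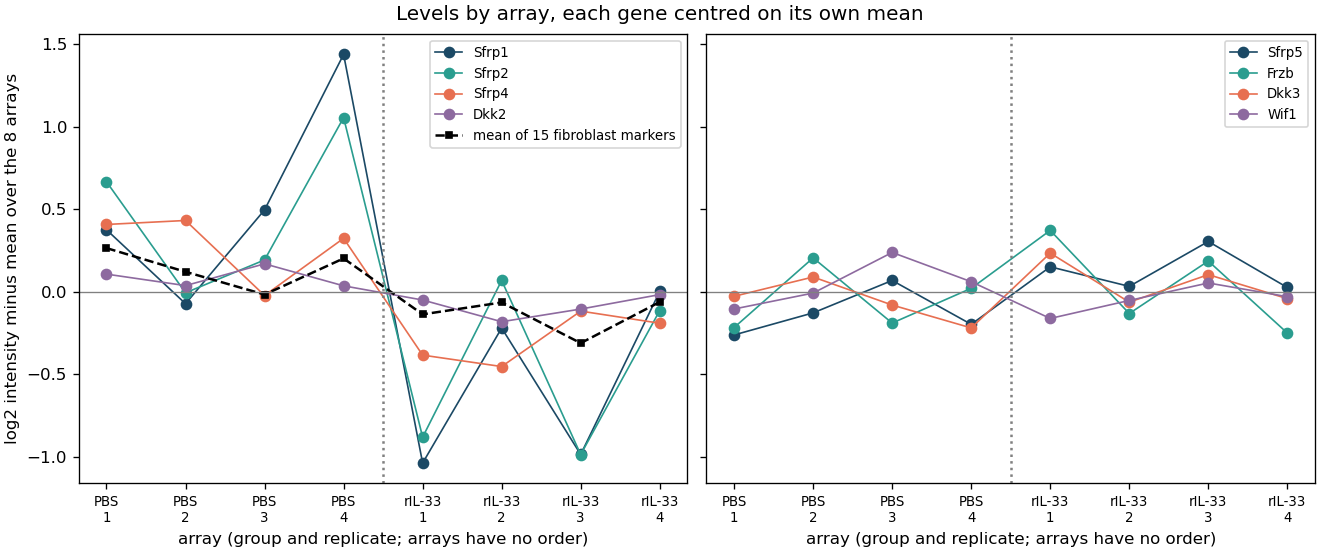
Log2 intensity minus each gene's mean over the 8 arrays (y axis) by array (x axis), with the lower members and the mean of 15 fibroblast marker genes (dashed) on the left and the remaining members on the right; lines only join the points of a gene, since arrays have no order. Sfrp1 and Sfrp2 are high and low on the same arrays, while the marker mean covers a narrower range, from 10.11 to 10.69 before centring.

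Within the genetic background labels, each with 2 arrays per treatment, all 8 members kept the sign of the pooled difference. The pooled difference is the mean of the 2 label differences, so these signs are no separate support for it. The share of all genes with the same sign in both labels was not counted. For Sfrp1 the difference was -0.78 in the C57BL/6 label and -1.46 in the WT label, and for Sfrp2 it was -0.74 and -1.17. Sfrp5 differed by 0.29 and 0.23, and Dkk2 by -0.19 and -0.16. Frzb differed by 0.13 and 0.05, Dkk3 by 0.05 and 0.18, and Wif1 by -0.05 and -0.14. Sfrp4 differed by -0.84 in the C57BL/6 label and by -0.30 in the WT label. The change of effect between labels was 0.53 for Sfrp4 (SE 0.17, limma interaction, unadjusted p = 0.0115, adjusted p = 0.999), and 3.19% of all genes had an unadjusted interaction p under 0.05. No other member did.

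**Figure D4:**
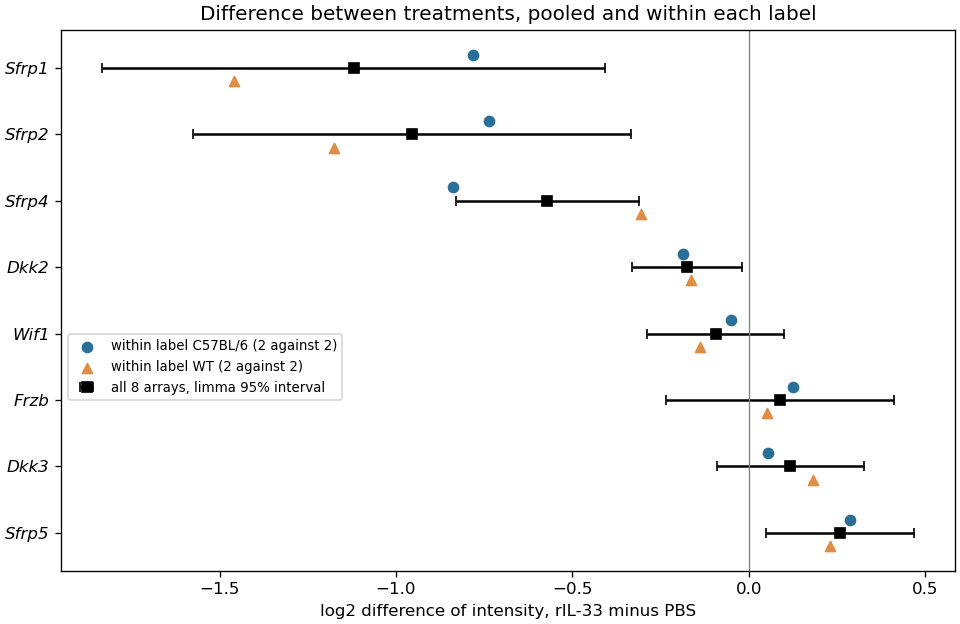
Log2 difference of intensity, rIL-33 minus PBS (x axis), for each member (y axis): black squares with the limma 95% interval over all 8 arrays, blue circles within the label C57BL/6 and orange triangles within the label WT, 2 arrays against 2. Both label values lie on the same side of 0 as the pooled value, which is their mean, in all 8 members. Those of Sfrp4, -0.84 and -0.30, lie just outside the ends of its interval.

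Which members were called at an unadjusted p under 0.05 depended in part on single arrays. Sfrp1, Sfrp2 and Sfrp4 were called whichever of the 8 arrays was left out. Sfrp5 and Dkk2 were lost together when PBS replicate 1 was left out, and likewise for rIL-33 replicate 3, which took the count from 5 to 3. Over all genes the count was 1227 and 826 in these fits, against 1427 with all arrays. Sfrp5 alone was also lost without PBS replicate 4, and Dkk2 alone without PBS replicate 3 and without rIL-33 replicate 2. Without PBS replicate 2, Sfrp1 and Sfrp2 no longer overlapped between the groups, and the count of members without overlap went from 2 to 4, all lower, where 5.62% of all genes were then lower without overlap. Leaving out 1 array moved the difference of Sfrp1 between -1.33 and -0.83, that of Sfrp2 between -1.14 and -0.76, and that of Sfrp4 between -0.67 and -0.52.

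The genes whose pattern over the 8 arrays was most like a member's were taken as the 3 tested genes of highest Pearson correlation, with no test. For Sfrp2 they were Thy1, a surface protein of fibroblasts and T cells (0.997), Glipr2 (0.993) and Plek, the pleckstrin gene of leukocytes and platelets (0.991). For Sfrp1 they were Tgfbi, a matrix protein gene induced by TGF-beta (0.994), the myeloid receptor gene Cd33 (0.989) and Cpt1c (0.987). For Sfrp4 they were Apod, the apolipoprotein D gene (0.958), C1qtnf7 (0.938) and Flt3 (0.934). Dkk2 was closest to E2f2 (0.970), Trnp1 (0.948) and Slc26a11 (0.938), and Sfrp5 to Dyrk1a (0.973), Myh13 (0.968) and Ube2r2 (0.964). Frzb was closest to the slow myosin light chain gene Myl3 (0.964), Gstm4 (0.954) and Arhgap44 (0.944), Dkk3 to Gm5105 (0.988), Pttg1 (0.984) and Eml1 (0.980), and Wif1 to Efna4 (0.995), Ccdc78 (0.992) and Fam131c (0.992).

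Most marker genes of the mesenchymal cells of muscle were lower with rIL-33 too. Of the 15 tested markers of fibro-adipogenic progenitors and fibroblasts (16 listed), 13 were lower and 2 higher, with a median of -0.33. At an unadjusted limma p under 0.05, 10 were lower and 1 higher, where 5.24% of all genes were lower and 4.39% higher. At the adjusted threshold there were 0. Within PBS the mean log2 level of the 15 markers was highest in replicate 1 (10.69) and lowest in replicate 3 (10.40). That order was unlike the one of Sfrp1 and Sfrp2. Their summed intensity ran from 32733 to 36980 with PBS and from 24906 to 30154 with rIL-33, without overlap, and none was near 0. How often such sums fail to overlap in other sets of genes was not worked out. Lumican (Lum) differed by -0.76 (SE 0.15) and decorin (Dcn) by -0.28 (SE 0.07), both proteoglycan genes of collagen fibrils (limma adjusted p = 0.489 for both). Sfrp1 and Sfrp2 thus differed by more than any of these 15 markers, and Sfrp4 by less than Lum and dermatopontin (Dpt, -0.61). The part of these cells in the result was not tested.

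Other cell types were looked at in the same way, beside the same 5.24% of all genes lower and 4.39% higher at an unadjusted limma p under 0.05. All 8 tenocyte markers were lower, with 2 at an unadjusted p under 0.05, a median of -0.23 and summed intensities of 7428 to 9051 with PBS and 6153 to 7882 with rIL-33. Tnmd, the tenomodulin gene of tendon, differed by -0.74 (SE 0.17) and Kera, keratocan, by -0.46 (SE 0.10). Of 9 macrophage markers 8 were lower, 3 of them at an unadjusted p under 0.05, with a median of -0.24. Ms4a7 differed by -0.60 (SE 0.17) and Fcgr1, an Fc receptor gene, by -0.55 (SE 0.17). The summed intensity of the macrophage list was 7779 to 10019 with PBS and 6182 to 8593 with rIL-33. The mean log2 level of a list was lowest in rIL-33 replicates 1 and 3, the arrays on which Sfrp1 and Sfrp2 were lowest, for macrophages (9.24 and 9.14), tenocytes (9.01 and 9.03), fibroblasts (10.28 and 10.11), pericytes and smooth muscle (10.05 and 9.85), endothelium (9.83 and 9.72) and satellite cells and myoblasts (9.52 and 9.46), and not for Schwann cells, mature myofibres or adipocytes. The part of these cells in the result was not tested.

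Of 9 pericyte and smooth muscle markers 6 were lower and 3 higher, 3 of them lower and 0 higher at an unadjusted p under 0.05, with a median of -0.16. Pdgfrb differed by -0.38 (SE 0.12) and Mcam by -0.24 (SE 0.10), and the highest was Abcc9 at 0.20 (SE 0.11). Of 8 endothelial markers 6 were lower and 2 higher, 4 lower and 1 higher at an unadjusted p under 0.05, with a median of -0.17. Emcn differed by -0.32 (SE 0.08), Eng by -0.33 (SE 0.10), and Vwf, the von Willebrand factor gene, by 0.21 (SE 0.09). The lists of satellite cells and myoblasts (median -0.03), Schwann and perineurial cells (0.00) and mature myofibres (0.06) had 0 members at an unadjusted p under 0.05. The members of smallest p there were Myog (-0.22, SE 0.19), Chrna1 (-0.08, SE 0.10), Pmp22 (-0.22, SE 0.10), Mbp (0.14, SE 0.07), Myh4 (0.10, SE 0.08) and Myh2 (0.17, SE 0.15). Of 6 adipocyte markers 4 were higher and 2 lower, 1 higher at an unadjusted p under 0.05, with a median of 0.10. Plin4, a lipid droplet protein gene, differed by 0.26 (SE 0.12), Plin1 by 0.22 (SE 0.10), Adipoq by -0.04 (SE 0.12) and Fabp4 by -0.01 (SE 0.07). Nothing in these lists passed the adjusted threshold in limma. Of all genes, 5.24% were lower and 4.39% higher at an unadjusted limma p under 0.05.

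In the rest of the Wnt pathway 1 tested gene differed by as much as Sfrp4 did. In 7 lists with 96 listed genes, 89 were tested, of which 60 were lower and 29 higher, with a median of -0.05. Those with an unadjusted limma p under 0.05 were 7 lower and 0 higher, where 5.24% of all genes were lower and 4.39% higher. The same shares stand beside the counts of the single lists below. At the adjusted threshold, 0 passed. A difference of more than 0.5 in size was seen in 1 of the 89, Igfbp4. Over all genes tested, 52.0% had a negative difference. Groups did not overlap in 4 lower and 1 higher of the 89 genes. Of all genes, 2.13% were lower and 2.44% higher without overlap, and these shares stand beside the mentions below. The higher one was Daam1, an intracellular transducer, at 0.12 (SE 0.06).

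Igfbp4, an insulin-like growth factor binding protein that can also inhibit Wnt signalling, belongs to the 8 other secreted inhibitors listed, of which 7 were tested. It stood at 10.97, 10.57, 10.57 and 11.06 with PBS and at 9.96, 10.51, 9.89 and 10.29 with rIL-33. Its arrays followed the order seen in Sfrp1 and Sfrp2, high in PBS replicate 4 and low in rIL-33 replicates 1 and 3, but without overlap between the groups. The difference was -0.63 (SE 0.16, limma adjusted p = 0.489). Cpz, a carboxypeptidase with a Frizzled-like domain, differed by -0.25 (SE 0.09), also without overlap. Dkk1 differed by 0.02 (SE 0.12) and Sost, the sclerostin gene, by -0.14 (SE 0.14), both named after their values were seen, and Sostdc1 was left out as dim.

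Of 9 membrane-bound inhibitors none had an unadjusted p under 0.05, and those of smallest p were Tmem59 (-0.12, SE 0.07) and Tpbg (-0.13, SE 0.10). Of 19 Wnt ligand genes 16 were tested and 1 was lower at an unadjusted p under 0.05, Wnt10b, a canonical ligand, at -0.22 (SE 0.10); Wnt16 differed by -0.14 (SE 0.08). The median of the ligands was -0.04. Differences of the 16 ran from -0.22 to 0.05.

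Among 16 receptors and co-receptors, with a median of -0.07, Fzd8 differed by -0.25 (SE 0.09) without overlap and Fzd7, the Frizzled receptor of satellite cells, by 0.20 (SE 0.10). Of the 9 genes of R-spondins, Lgr receptors and Wnt secretion, Lgr5 differed by -0.22 (SE 0.08) and Lgr4 by 0.28 (SE 0.14). Lgr5 was dim too, at 7.09 with PBS and 6.87 with rIL-33 against the cut-off of 6.65. Of 18 intracellular transducers, Tcf7l2, a TCF factor also used as a marker of muscle fibroblasts, differed by -0.21 (SE 0.07) without overlap and Dvl1 by 0.16 (SE 0.08), and the list's median was 0.00. The limma adjusted p of these 6 genes lay between 0.489 and 0.554.

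Target genes of beta-catenin were lower in 12 of 14 tested (17 names listed, some of them synonyms), with a median of -0.07. At an unadjusted limma p under 0.05 there was 1, lower, where 5.24% of all genes were lower. That was Ccnd1, the cyclin D1 gene, at -0.33 (SE 0.14, limma adjusted p = 0.503). Cd44 differed by -0.40 (SE 0.20). Axin2, a feedback inhibitor widely used to read canonical Wnt activity, was 7.76 ± 0.11 with PBS and 7.72 ± 0.11 with rIL-33 (SD, n = 4 per group), a difference of -0.04 (SE 0.08, limma adjusted p = 0.918), and Lef1 differed by -0.07 (SE 0.09). Axin2 and Lef1 were named after their values were seen.

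**Figure D5:**
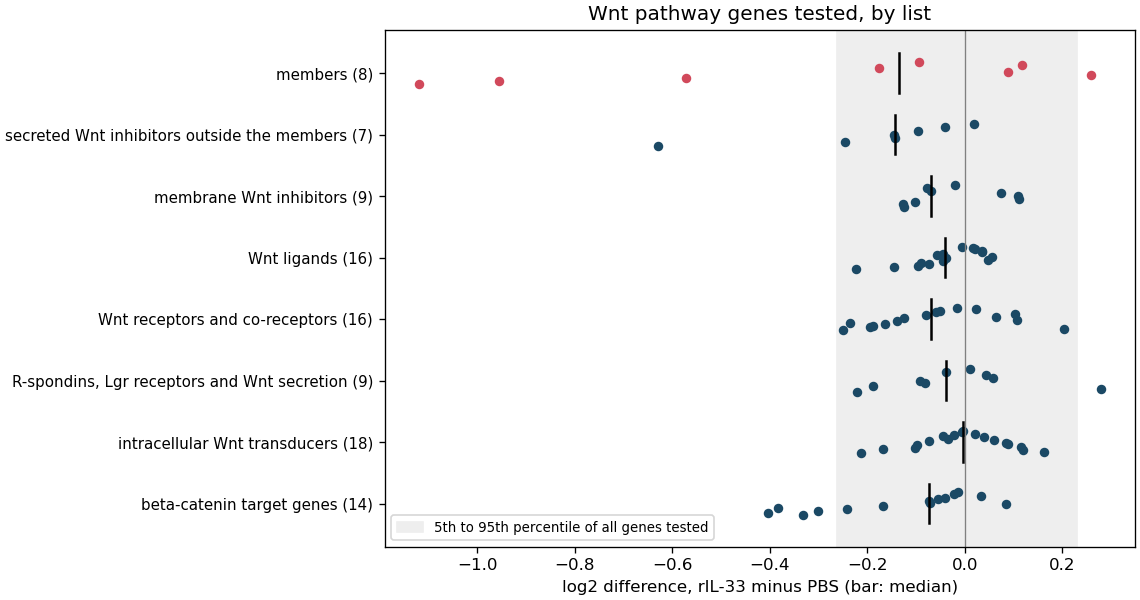
Log2 difference, rIL-33 minus PBS (x axis), of each tested gene in the members and in 7 lists of Wnt pathway genes (y axis, number tested in brackets), with the median as a black bar and the 5th to 95th percentile of all genes tested (-0.26 to 0.23) in grey. Sfrp1, Sfrp2 and Sfrp4 of the members and Igfbp4 of the other secreted inhibitors are the 4 points below -0.5.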

How the data were processed

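Whole-muscle RNA of 8 samples (4 rIL-33, 4 PBS) was measured, 1 array each. The authors deposited linear intensities for 24922 probe sets. RMA and Affymetrix Power Tools are named in the submitters' processing notes, without versions. RMA corrects background, equalises array distributions and summarises probes. Log2 was taken here. Gene names came from the platform annotation: 21425 probe sets had 1 symbol, 1399 several and 2098 none listed; the last 2 kinds were left out. The brightest probe set on average stood for a gene, and 4938 genes under the 25th percentile (6.65) were left out as dim. Groups were compared with lmFit and eBayes (limma 3.58.1, R 4.3.3) without a block, adjusted by Benjamini-Hochberg over 14814 genes, beside exact two-sided permutation tests for single members. The fit was tested on simulated data. Arrays give no read depth; their number limits the precision. The members and lists were chosen with earlier results of these data known. Named genes were the 8 members, each list's 2 of smallest p, and the 3 genes most like each member. Acta1, Dpt, Abcc9, Vwf, Adipoq, Fabp4, Dkk1, Sost, Sostdc1, Daam1, Axin2, Lef1, Myc, Ccn4 and Ccn5 were named outside this rule, after their values were seen. Alternatives were 2 normalizations, dim filters, variance models, array weights, blocks, each label alone, mean of probe sets and each array left out. Figures used matplotlib 3.10.9. Promoter windows are from RefSeq, GRCm38.p6.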

Additional observations from a re-analysis of the deposited data

Results flagged for a closer look

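Sfrp4 differed between the genetic background labels in its treatment effect, by 0.53 on the log2 scale (-0.84 within the C57BL/6-labelled arrays, -0.30 within the WT-labelled ones; limma interaction unadjusted p = 0.0115, adjusted p = 0.999 over all genes). PBS replicate 3, labelled WT, was the lowest PBS array at 8.65, and rIL-33 replicate 3, also labelled WT, the highest rIL-33 array at 8.56. In none of the 16 member groups of 4 arrays did 1 array stand apart by Dixon's criterion.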

How the results depend on the processing

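All alternatives left 0 members past the adjusted threshold. The smallest limma adjusted p of a member was 0.0913, for Sfrp4 within the C57BL/6-labelled arrays alone, 2 against 2. Within the WT-labelled arrays alone Sfrp4 had a limma adjusted p of 0.435. All members but Frzb kept their sign in every alternative that tested them; Frzb turned to -0.0904 with array weights and to -0.0202 without rIL-33 replicate 1, the range with 1 array left out being -0.0202 to 0.187. Genes past the threshold numbered 1, but 2 within the C57BL/6-labelled arrays alone, 4 within the WT-labelled ones, and 1 to 2 with 1 array left out (2 without rIL-33 replicate 4). Members without overlap numbered 2, but 4 and 6 within those labels, where 2 arrays face 2 and 33% and 45.5% of all genes did not overlap either, and 2 to 4 with 1 array left out (5.33% to 11.9% of all genes, against 4.57% with all arrays). The median difference of the members was -0.24 with the dim filter at the 50th percentile, which left 6 of them, and ran from -0.157 to -0.0895 with 1 array left out (-0.0895 without PBS replicate 3). The count at an unadjusted p under 0.05, an alternative chosen after seeing the data, was 5, but 2 in the WT-labelled arrays alone and 3 to 5 with 1 array left out. The causes were not tested. The replicate numbers did not pair the arrays (correlations of deviations 0.44, -0.19, 0.43 and 0.54, not every array being closest to its own number). With the replicate number as a block, 0 genes passed the threshold, 2327 instead of 1427 had an unadjusted p under 0.05, and the same 5 members did. Replicates 1 and 2 share a background label, as do 3 and 4. With that label alone as a block, 1 gene passed, 2244 had an unadjusted limma p under 0.05, and the same 5 members did. Dimness limits Wif1 most.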

Other observations

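Some of the beta-catenin targets were lowest on the same 2 rIL-33 arrays as Sfrp1 and Sfrp2, and are given here after their values were seen. In 4 of the 14 tested, Ccnd1, Cd44, Myc and Ccn4, rIL-33 replicates 1 and 3 were the 2 lowest arrays. The share of all genes with these 2 arrays lowest was not counted. Several cell type lists, among them fibroblasts and macrophages, had their lowest means on these arrays too, so the order is not particular to Wnt targets. Ccn4, a secreted matricellular protein gene of the CCN family, was at 8.85, 8.28, 8.89 and 8.84 with PBS and at 7.85, 8.70, 7.98 and 8.79 with rIL-33, with a difference of -0.38 (SE 0.22, limma adjusted p = 0.591). Its rIL-33 replicates 2 and 4 lay within the range of PBS. Cd44, the hyaluronan receptor gene, was at 9.51, 9.04, 9.44 and 9.78 with PBS and at 8.79, 9.51, 8.62 and 9.23 with rIL-33. Myc was at 9.37, 9.02, 8.72 and 9.10 with PBS and at 8.65, 8.98, 8.64 and 8.98 with rIL-33. Within PBS, only Cd44 of these 4 was highest in replicate 4, as Sfrp1 and Sfrp2 were. Ccnd1 and Myc were highest in PBS replicate 1 and Ccn4 in PBS replicate 3. Ccn5, of the CCN family too, was highest in PBS replicate 4 (9.21) and lowest in rIL-33 replicate 1 (8.28), with a difference of -0.30 (SE 0.15, limma adjusted p = 0.548).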
